A study of Dendrobium catenatum with 16 samples.

Results

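LOC110100371 is a gene of the orchid Dendrobium catenatum that its annotation names mannan endo-1,4-beta-mannosidase 2-like. It was followed by its LOC name through all 16 RNA-seq libraries of the series and set beside 11 other genes: 10 named mannan endo-1,4-beta-mannosidase and 1 with that name only as its best protein match. It is 1 of 23063 genes in the count table of the first experiment and of 28537 in that of the second. The gene was selected on measured values of these libraries, taken here to be its fold changes with 6-BA in the first experiment, so its values in those comparisons are given as a description, with no test.

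Mannan endo-1,4-beta-mannosidases, or mannanases, are secreted enzymes of glycoside hydrolase family GH5 that cut the mannose backbone of mannans, glucomannans and galactomannans inside the chain. Exo-acting beta-mannosidases then release mannose from the ends, and hexokinases can phosphorylate the freed sugar. In flowering plants mannanases are known from seed germination, fruit softening and wall loosening, and Dendrobium stems store water-soluble glucomannan that such enzymes can cut.

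The libraries came from young leaves, stems and shoots of plantlets grown from seed on agar medium. In the first experiment, plantlets aged 2 months were kept for 3 weeks on medium with 0.1 mg/L NAA plus 1.0 mg/L 6-BA, with 1.0 mg/L 6-BA alone, with 0.1 mg/L NAA alone, or with distilled water, 2 libraries each. NAA is a synthetic auxin and 6-BA a synthetic cytokinin. In the second experiment, plantlets aged 9 months were kept with 0, 0.5, 1.0 or 2.0 mg/L 6-BA and sampled after 2 and 4 weeks, 1 library per dose and time. The labels speak of biological replicates in the first experiment but name no separate vessels, so p-values measure only the spread between these samples.

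Library totals were 34289743 to 74461337 counts in the first experiment, and those of the second were 15090869 to 16257836. All 19 chlorophyll a-b binding and Rubisco small subunit genes used as green tissue markers were detected in all 16 libraries. Their sums were 14546 to 35871 CPM (counts per 1000000 counts). The 4 root markers summed to 15.7 to 53.1 CPM. These lists hold unlike genes, so the gap between them does not measure how much root was present. In each of the 4 groups the chi-square between the replicates was 16.1 to 27.4 times its degrees of freedom, above sampling noise, so no library was treated as a copy of another. This does not show separate cultures.

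LOC110100371 lies on the minus strand of scaffold NW_021331264.1, from base 192391 to base 195740, by the authors' table. The interval is the same in the RefSeq annotation of the assembly ASM160598v2. The table gives a gene length of 2566 bases in a span of 3350 bases, and its best protein match is mannan endo-1,4-beta-mannosidase 2. The scaffold carries 18 annotated genes, and no other gene described as a mannanase is on it.

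In the first experiment, the gene was abundant in plantlets without 6-BA and low in all 4 libraries with it. Levels in CPM, scaled by TMM, a library size correction, were 4.38 and 2.46 with NAA plus 6-BA, against 109 and 56.4 with NAA alone. They were 2.14 and 3.95 with 6-BA alone, against 46.5 and 67.1 with water. The highest library with 6-BA was lower than the lowest library without it. The gene was taken to be selected on this difference, so the gap is only a description. The share of all genes with such a gap was not computed.

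These levels rest on 333 and 143 counts with NAA plus 6-BA and on 118 and 211 with 6-BA. They rest on 3973 and 1892 counts with NAA and on 1820 and 2688 with water. Counting error was thus small beside the spread between libraries in all 4 groups. Exact 95% intervals were 1.77 to 2.57 CPM for the lowest library, 6-BA replicate 1, and 105 to 112 CPM for the highest, NAA replicate 1. Intervals on single libraries cover counting error only.

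**Figure D1:**
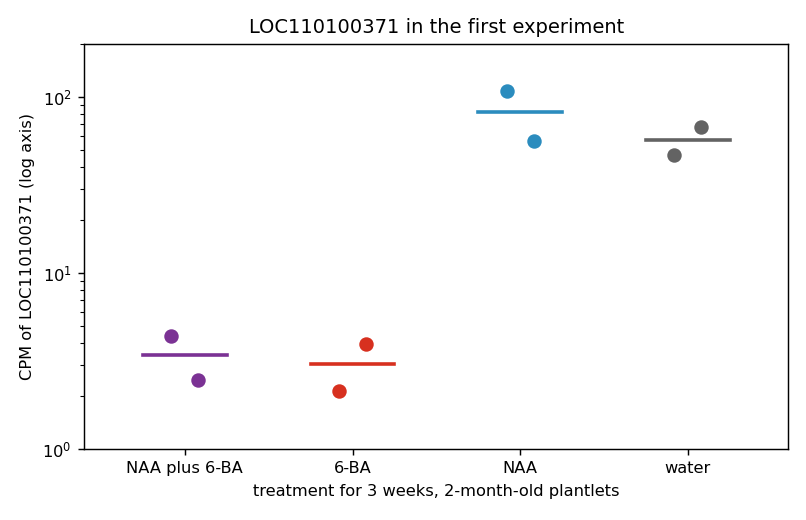
CPM of LOC110100371 (TMM-scaled, log axis) in the 8 libraries of the first experiment, by treatment. Points are single libraries and lines are means of 2. The 4 libraries with 6-BA sit between 2.14 and 4.38 CPM and the 4 without it between 46.5 and 109 CPM.

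The group means were 3.42 ± 1.35 CPM with NAA plus 6-BA, 3.05 ± 1.28 with 6-BA, 82.6 ± 37.1 with NAA and 56.8 ± 14.6 with water (SD, n = 2 each). The order of the means was NAA, water, NAA plus 6-BA, 6-BA. The neighbours NAA and water overlapped, since NAA replicate 2 lay between the 2 water libraries. NAA plus 6-BA and 6-BA overlapped in the same way.

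With 6-BA against water the fitted log2 fold change was -4.22 (SE 0.41), and with NAA plus 6-BA against NAA it was -4.57 (SE 0.40). These 2 comparisons share no library. Of 19420 genes tested, LOC110100371 had rank 38 from the lowest fold change in the first of them and rank 34 in the second. Over all genes, 7.31% passed an adjusted p of 0.05 with 6-BA against water and 5.58% with NAA plus 6-BA against NAA (edgeR quasi-likelihood test, Benjamini-Hochberg), and nothing is read from these shares about a gene selected on measured values.

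In whole shoots, fewer cells of a type and less RNA per cell cannot be told apart. Over all genes, 3.11% were called higher and 4.2% lower with 6-BA against water. With NAA plus 6-BA against NAA these shares were 1.94% and 3.64%. Of 4 root markers (3 SHORT-ROOT genes and a casparian strip membrane protein), 2 were called lower with 6-BA against water and 2 with NAA plus 6-BA against NAA, and all 4 were detected in all 8 libraries. Their summed level was 21.7 and 20.6 CPM with NAA plus 6-BA, 23.7 and 24.0 with 6-BA, 22.5 and 28.3 with NAA, and 30.7 and 29.3 with water. Of 19 green tissue markers, 1 was called higher with 6-BA against water and 0 were called with NAA plus 6-BA against NAA, and their sum ranged from 30599 to 32424 CPM with 6-BA in the medium and from 27306 to 34446 CPM without it. Of 69 cyclin and histone genes of dividing tissue, 67 were in the table of the first experiment, 61 to 63 of them above 0 in the libraries with 6-BA and 60 to 62 in those without it. Of the 60 tested, 0 were called higher and 1 lower with 6-BA against water, and 1 higher and 2 lower with NAA plus 6-BA against NAA. Their sum ranged from 5725 to 6838 CPM with it and from 5326 to 6563 CPM without it. The part of any of these in the level of LOC110100371 was not tested.

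The auxin comparisons were taken as not used to select the gene and were tested, though they reuse the libraries of the 6-BA comparisons. With NAA against water, LOC110100371 had 109 and 56.4 CPM in NAA plantlets and 46.5 and 67.1 CPM in water plantlets. The log2 fold change was 0.54 (SE 0.34, 95% interval -0.22 to 1.30, adjusted p = 0.611, edgeR), so no difference beyond the spread between libraries was detected, and 2.23% of all genes passed. Without NAA replicate 1 the log2 fold change was -0.011.

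NAA on top of 6-BA was compared at the low level. The log2 fold change of NAA plus 6-BA against 6-BA was 0.19 (SE 0.42, 95% interval -0.75 to 1.13, adjusted p = 0.986, edgeR). It was -0.19 without 6-BA replicate 1 and -0.30 without NAA plus 6-BA replicate 1. In this comparison 0% of the 19420 genes passed by edgeR, while 1073 had an unadjusted p under 0.05, 40 passed by DESeq2 and 0 by limma.

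The interaction of NAA and 6-BA is the difference of the 2 fold changes with 6-BA, so for LOC110100371 it is given with no test. Its log2 value was -0.35, and it was 0.20 without NAA replicate 1 and 0.15 without 6-BA replicate 2. Over all genes 0.52% passed by edgeR, 0.154% with a positive and 0.366% with a negative value.

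In the second experiment, with older plantlets, the gene had a high level in 2 of the 8 libraries. After 2 weeks it stood at 17.5 CPM with 0 mg/L 6-BA, 7.48 with 0.5 mg/L, 1.10 with 1.0 mg/L and 1.06 with 2.0 mg/L (CPM on library totals). After 4 weeks it stood at 0.394 CPM with 0 mg/L, 0.431 with 0.5 mg/L, 2.25 with 1.0 mg/L and 1.22 with 2.0 mg/L. The 2 high libraries were those of 0 and 0.5 mg/L at 2 weeks, and at 4 weeks the libraries of 0 and 0.5 mg/L were the lowest.

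The counts behind these levels were 274, 121, 17 and 17 at 2 weeks and 6, 7, 34 and 19 at 4 weeks, in order of rising dose. At 2 weeks the ratio to the library without 6-BA was 0.427 at 0.5 mg/L (exact conditional 95% interval 0.342 to 0.531). It was 0.0628 at 1.0 mg/L (0.0361 to 0.102) and 0.0606 at 2.0 mg/L (0.0348 to 0.0989). The libraries with 6-BA were thus all lower than the one without it by more than counting error at 2 weeks.

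At 4 weeks the ratio to the library without 6-BA was 1.09 at 0.5 mg/L (0.315 to 3.94), 5.72 at 1.0 mg/L (2.38 to 16.7) and 3.10 at 2.0 mg/L (1.19 to 9.47). The libraries of 1.0 and 2.0 mg/L were higher than the one without 6-BA, which held 6 counts, by more than counting error. Each ratio compares 2 libraries and says nothing of the spread between plantlets.

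Between the times, the level at 4 weeks was 0.0225 of that at 2 weeks without 6-BA (0.00818 to 0.0496) and 0.0576 at 0.5 mg/L (0.0227 to 0.122). At 1.0 mg/L the ratio of 4 weeks to 2 weeks was 2.05 (1.11 to 3.91), and at 2.0 mg/L it was 1.15 (0.565 to 2.35). The level at 4 weeks was thus lower by more than counting error at 0 and 0.5 mg/L, and within counting error at 2.0 mg/L. At 1.0 mg/L it was higher on library totals, with a lower limit of 1.11. With TMM scaling the levels at 1.0 mg/L were closer, 2.27 CPM at 4 weeks and 1.23 CPM at 2 weeks, and no interval was computed.

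**Figure D2:**
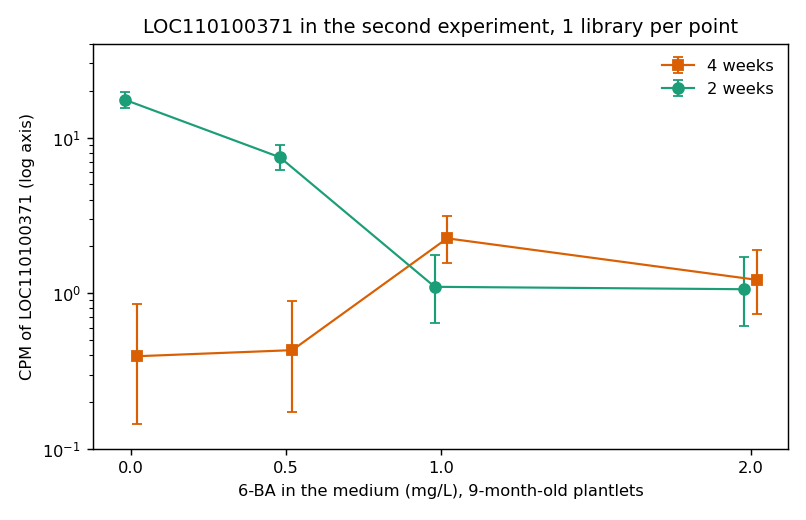
CPM of LOC110100371 (on library totals, log axis) against the 6-BA dose in mg/L, after 4 and 2 weeks, 1 library per point. Bars are exact Poisson 95% intervals. At 2 weeks the level is 17.5 CPM without 6-BA and 1.06 CPM at 2.0 mg/L, and at 4 weeks it is 0.394 CPM without 6-BA and 2.25 CPM at 1.0 mg/L.

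With no replicate of any condition, the spread came from an additive model of week and 6-BA over the 8 libraries. That spread also holds what the model leaves out, such as differences among doses or between the responses at the 2 times. The SE and adjusted p therefore do not measure the spread between plantlets alone. The log2 fold change with any dose of 6-BA was -1.14 (SE 1.19, adjusted p = 0.856, edgeR), and without the library of 0 mg/L at 2 weeks it was 1.86. The dose slope in log2 units was -0.81 per mg/L (SE 0.78, adjusted p = 1, edgeR), and it was -0.048 without 2.0 mg/L at 2 weeks and -0.18 without 0 mg/L at 2 weeks. The difference of 4 weeks against 2 weeks was -2.15 (SE 1.07, adjusted p = 0.890, edgeR), at rank 38 from the lowest of 21267 genes, and -2.94 to -1.30 leaving out 1 library at a time. None of these passed for LOC110100371.

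A term for a different 6-BA response at the 2 times was added after the values were seen. Its log2 value was 4.29 (SE 1.95, unadjusted p = 0.0663 and adjusted p = 1.00, edgeR). By edgeR 0% of genes passed in any of these 4 tests. Unadjusted p-values under 0.05 numbered 498 for any dose, 430 for the slope, 1116 for the week and 377 for the interaction. DESeq2 called 6, 5, 82 and 9 genes in the same order, and limma called 0 in each.

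By edgeR, 0 of the 58 dividing tissue, 19 green and 4 root markers tested were called for any dose, the slope or the week. For the interaction of week and 6-BA 0 of 60, 19 and 4 were called. Of the 69 dividing tissue markers, 57 to 64 were above 0 in these libraries, 1 per condition. Their summed level was 6354, 8372, 4380 and 3069 CPM at 2 weeks and 11864, 3919, 4017 and 8640 CPM at 4 weeks, in order of rising dose. LOC110100371 was high in 2 of the 4 libraries with the largest sums and low in the other 2, those of 0 and 2.0 mg/L at 4 weeks. The summed green markers were 26984 to 35871 CPM at 2 weeks and 14546 to 21090 CPM at 4 weeks. The summed root markers were 18.2 to 34.9 CPM at 2 weeks and 15.7 to 53.1 CPM at 4 weeks, the highest being that of 0 mg/L, with 3 or 4 of the 4 above 0. The part of these in the level of the gene was not tested.

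Of the 12 mannanase genes, 11 carry the name in their description and 1, LOC114579712, is called uncharacterized and was included by its best protein match, to mannanase 7. All but LOC110107054, a 1-like gene with at most 14 counts in a library of the first experiment, passed the filter on low counts there. Of the 12, 10 passed it in the second experiment in the fits of any dose, slope and week, and all 12 in that of the interaction of week and 6-BA. LOC110099591 and LOC110099592, both mannanase 6 genes, lie next to each other on scaffold NW_021319320.1, and how the counting divided reads between like copies was not given, so their values are uncertain.

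Per length, on the authors' FPKM scale, LOC110100371 was the second most abundant mannanase of the plantlets without 6-BA in the first experiment. It had 1.74 and 0.964 FPKM with NAA plus 6-BA, 0.846 and 1.55 with 6-BA, 41.6 and 21.5 with NAA, and 18.0 and 26.1 with water. It ranked 7 and 8 of the 12 genes with NAA plus 6-BA, 8 and 6 with 6-BA, and 2 in all 4 libraries without 6-BA. The 1-like gene LOC110114424 was the most abundant in all 8, with 132 to 170 FPKM.

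As a share of the summed FPKM of the 12 genes, LOC110100371 made up 0.963% and 0.539% with NAA plus 6-BA and 0.503% and 0.883% with 6-BA. It made up 19.4% and 11.2% with NAA and 9.14% and 11.4% with water. The sum of the 11 other genes was 167 to 179 FPKM with 6-BA in the medium and 170 to 203 FPKM without it, so the 2 ranges overlapped.

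**Figure D3:**
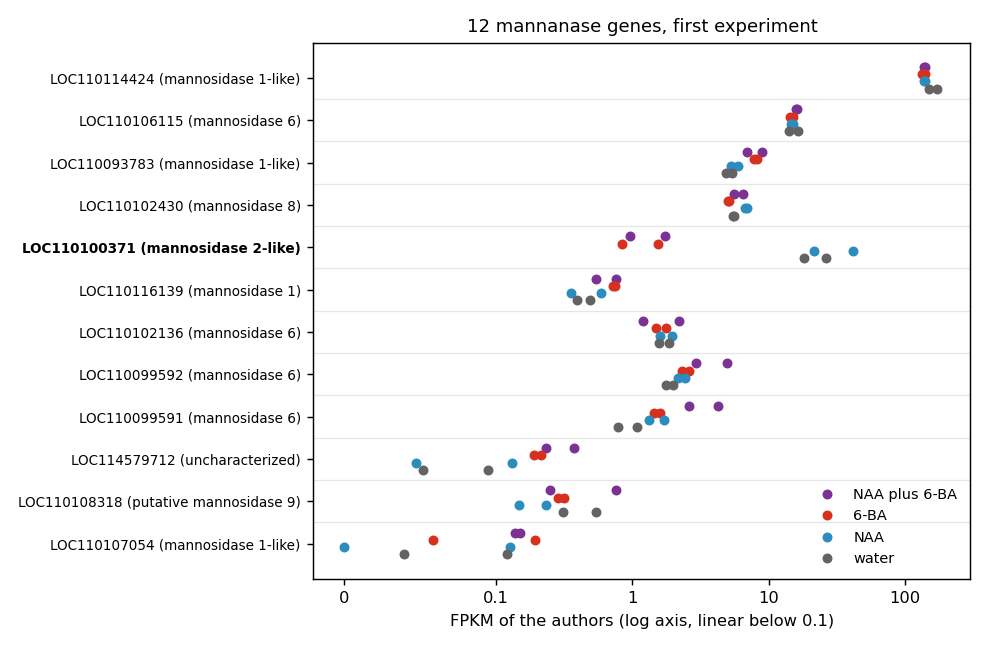
FPKM of the authors for the 12 mannanase genes in the 8 libraries of the first experiment (log axis, linear below 0.1). Points are single libraries, colored by treatment. LOC110100371 lies between 0.846 and 1.74 FPKM in the libraries with 6-BA and between 18.0 and 41.6 FPKM in those without it.

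The range of LOC110100371 over the 8 libraries was 49.1-fold in FPKM. It holds the difference with 6-BA on which the gene was taken to be selected, so its size beside the other genes is only a description. The 10 other genes with no library at 0 had ranges of 1.18-fold, for the mannanase 6 gene LOC110106115, to 7.89-fold, for LOC114579712. In the second experiment the range of LOC110100371 was 50.3-fold in FPKM, and those of the 7 other genes with no library at 0 were 1.66-fold to 13.9-fold. In CPM on library totals that of LOC110100371 was 44.5-fold. Counting error is part of these ranges for the genes of low level.

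None of the 10 other mannanase genes tested was called lower with 6-BA, and 1 was called higher. The 1-like gene LOC110093783 had 16.6 and 17.5 CPM with 6-BA and 11.7 and 10.5 CPM with water. Its log2 fold change was 0.62 (SE 0.14, adjusted p = 0.0311, edgeR), and over all genes 3.11% were called higher and 4.2% lower. The call was lost without any 1 of the 4 libraries compared, with log2 fold changes of 0.55 to 0.70. With NAA plus 6-BA against NAA its log2 fold change was 0.46 (SE 0.14, adjusted p = 0.103, edgeR).

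The most abundant gene, LOC110114424, had 228 and 243 CPM with 6-BA and 261 and 298 CPM with water. Its log2 fold change was -0.25 (SE 0.09, adjusted p = 0.136, edgeR). The median log2 fold change of the 10 genes was 0.16 with 6-BA against water and 0.43 with NAA plus 6-BA against NAA, beside medians of 0.00 over all genes tested in both. With NAA plus 6-BA against NAA 0 of the 10 passed by edgeR, 4 had an unadjusted p under 0.05, as did 19.8% of all genes, and 1 passed by DESeq2, beside 1750 of all 19420. The nearest to the threshold was LOC110099591 at 1.12 (SE 0.29, adjusted p = 0.0521, edgeR), whose FPKM was 4.24 and 2.61 with NAA plus 6-BA and 1.33 and 1.72 with NAA. For NAA against water, NAA plus 6-BA against 6-BA and the interaction, 0 of the 10 passed by edgeR, with 2, 2 and 0 unadjusted p-values under 0.05, beside 11.9%, 5.53% and 8.14% of all genes.

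**Figure D4:**
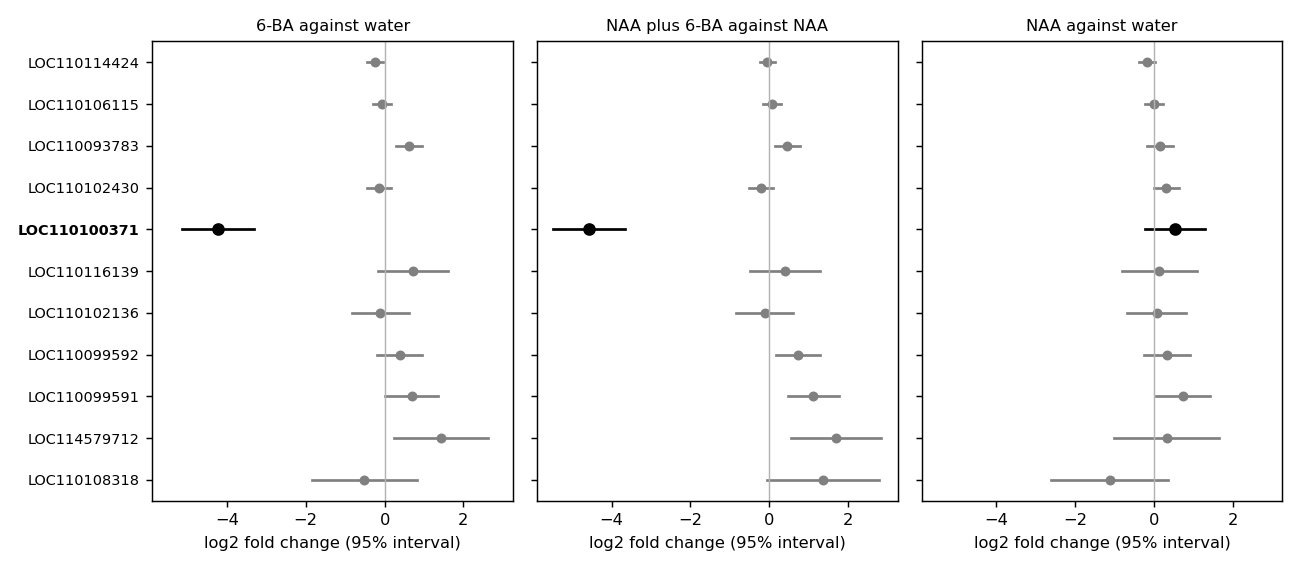
Fitted log2 fold changes with 95% intervals for the 11 mannanase genes tested in the first experiment, in 3 comparisons. LOC110100371 (black) has -4.22 with 6-BA against water, -4.57 with NAA plus 6-BA against NAA and 0.54 with NAA against water. The other genes (grey) lie between -0.51 and 1.43 in the first of these.

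In the second experiment LOC110100371 ranked 4 of the 12 genes in FPKM at 0 mg/L and 2 weeks, with 6.70 FPKM and 6.61% of the summed level. It ranked 11 at 0 mg/L and 4 weeks, with 0.133 FPKM and 0.115%. In the other 6 libraries it ranked 5 to 8, at 0.315% to 3.01% of the sum. LOC110114424 had 11.4 to 91.6 FPKM over these libraries and was the most abundant in all but that of 0.5 mg/L at 4 weeks, where the mannanase 8 gene LOC110102430 led with 17.9 FPKM. Of the 9 other genes tested, 0 passed by edgeR for any dose, the slope or the week, all with 0 unadjusted p-values under 0.05, beside 2.34%, 2.02% and 5.25% of all genes.

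The other genes of mannan metabolism were taken from lists of words in the gene descriptions. Chain synthesis joins mannose from GDP-mannose into the backbone, and 14 genes matched its words. Of these, 1 was called higher and 0 lower with 6-BA against water, where 3.11% of all genes were called higher and 4.2% lower. The glucomannan 4-beta-mannosyltransferase LOC110108629 had 21.6 and 39.8 CPM with 6-BA and 7.13 and 7.69 CPM with water. Its log2 fold change was 2.05 (SE 0.25, adjusted p = 0.00137, edgeR). The list's median was 0.14, beside 0.00 over all genes.

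With NAA plus 6-BA against NAA, 1 chain synthesis gene was called higher and 2 lower, where 1.94% of all genes were called higher and 3.64% lower. LOC110108629 had a log2 fold change of 1.06 (SE 0.24, adjusted p = 0.0319), the mannosyltransferase LOC110112100 had -0.73 (SE 0.14, adjusted p = 0.0184) and LOC110102411 had -0.44 (SE 0.11, adjusted p = 0.0437, edgeR for all 3). With NAA against water, where 1.41% of all genes were called higher and 0.824% lower, 2 of the 14 were called higher and 0 lower, LOC110108629 at 1.28 (SE 0.25, adjusted p = 0.0309) and LOC110102411 at 0.67 (SE 0.11, adjusted p = 0.0135, edgeR for both). The list's median was -0.15 in the first of these comparisons and 0.32 in the second. Each of these calls was lost without some single library, and that of LOC110102411 with NAA plus 6-BA against NAA was kept under 4 of 16 alternatives, while that of LOC110108629 with 6-BA against water was kept without any 1 library.

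LOC110108629 stood at 2.36, 135, 0.453 and 2.31 CPM at 2 weeks and at 219, 2.71, 0 and 144 CPM at 4 weeks, in order of rising dose. Its log2 fold change was -0.62 with any dose (SE 2.84, adjusted p = 0.956) and 0.96 at 4 weeks against 2 weeks (SE 2.41, adjusted p = 0.961, edgeR for both). By edgeR 0 of the 14 chain synthesis genes passed in any of the 4 tests of the second experiment, with 0, 1, 1 and 0 unadjusted p-values under 0.05 for any dose, the slope, the week and the interaction. LOC110108629 was high in 3 of the 4 libraries with the largest dividing tissue sums. LOC110100371 was high beside it in 1 of these 3, that of 0.5 mg/L at 2 weeks.

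The list for supply of the sugar donor GDP-mannose held 11 genes matched by words, and what each does with it was not checked. By edgeR 0 of the 11 passed in any comparison of the first experiment. Unadjusted p-values under 0.05 numbered 1, 0 and 3 with 6-BA against water, NAA plus 6-BA against NAA, and NAA against water. Over all genes these shares were 21.5%, 19.8% and 11.9%. Of 3 side chain genes, the alpha-galactosidase-like LOC110108280, of an enzyme family that can remove galactose from galactomannan, was called lower with 6-BA against water, beside 4.2% of all genes. It had 11.0 and 7.40 CPM with 6-BA and 24.4 and 27.2 CPM with water, and its log2 fold change was -1.49 (SE 0.20, adjusted p = 0.00218, edgeR). With NAA plus 6-BA against NAA its log2 fold change was -0.21 (SE 0.19, adjusted p = 0.620, edgeR).

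Of 6 genes of breakdown after the endo cut, beta-mannosidases and hexokinases, 1 was called higher and 1 lower with 6-BA against water, beside 3.11% and 4.2% of all genes. Hexokinase-3 (LOC110105045) had a log2 fold change of 0.57 (SE 0.13, adjusted p = 0.0277) and the chloroplastic hexokinase-2 (LOC110114236) had -0.41 (SE 0.10, adjusted p = 0.0298, edgeR for both). With NAA against water hexokinase-3 had 0.69 (SE 0.13, adjusted p = 0.0286, edgeR). All 3 of these calls were lost without some single library, and that of hexokinase-3 with NAA against water was kept under 8 of 16 alternatives. No beta-mannosidase passed in any comparison by edgeR. At most 7.31% of all genes passed in any of them and the list holds 6 genes, so nothing is read from this.

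The genes annotated next to LOC110100371 were not called with 6-BA. LOC110100374, a leucine-rich repeat receptor-like kinase 4543 bases away on the plus strand, had a log2 fold change of 0.11 with 6-BA against water (SE 0.10, adjusted p = 0.577, edgeR). LOC110100381, a kinase of the HT1 type 9718 bases away on the other side, had a log2 fold change of 0.09. None of the comparisons of either experiment called these 2 genes. Over all genes, 7.31% passed with 6-BA against water and 5.58% with NAA plus 6-BA against NAA (edgeR). Most genes were thus not called, and nothing is read from these 2.

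Likeness of pattern was measured as the mean of 2 Pearson correlations of log2(CPM + 0.5), over the 8 libraries of each experiment, among 17150 genes. These libraries share treatments and depth, and the values are a description. The 6 genes most like LOC110100371 are given in order. LOC110112065, a clavaminate synthase-like oxygenase, had a mean r of 0.950 (0.995 and 0.905 in the first and the second experiment). LOC110098661, an ABC transporter of family B named after an Arabidopsis auxin transporter, had 0.919, and LOC110104850, an adenylyl-sulfate kinase that makes the sulfate donor PAPS, had 0.915.

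LOC110098487, a GRAS regulator named after the legume nodulation gene NSP2, had 0.912. LOC110105848, of the DAO type of dioxygenases that oxidise auxin in other plants, had 0.909, and LOC110096240, an ethylene-responsive transcription factor 9-like gene, had 0.892. With Spearman's rho 3 of these 6 were again among the first 6, and with a minimum of 0.1 CPM in place of 1 only 1 of them was. The first place went to LOC110098661 with Spearman's rho, where LOC110112065 was at rank 6, and to LOC114580551 with the lower minimum, where it was at rank 3.

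The first gene by this measure, LOC110112065, had 11.2 and 10.8 CPM with NAA plus 6-BA and 8.96 and 13.0 with 6-BA, against 401 and 237 with NAA and 210 and 254 with water. In the older plantlets it stood at 45.8, 21.4, 1.49 and 0 CPM at 2 weeks and at 0.590, 0.923, 0.928 and 0.257 CPM at 4 weeks, in order of rising dose. As for LOC110100371, the 2 high libraries were those of 0 and 0.5 mg/L at 2 weeks. LOC110112065 was picked for likeness over these same libraries, so this is only a description.

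**Figure D5:**
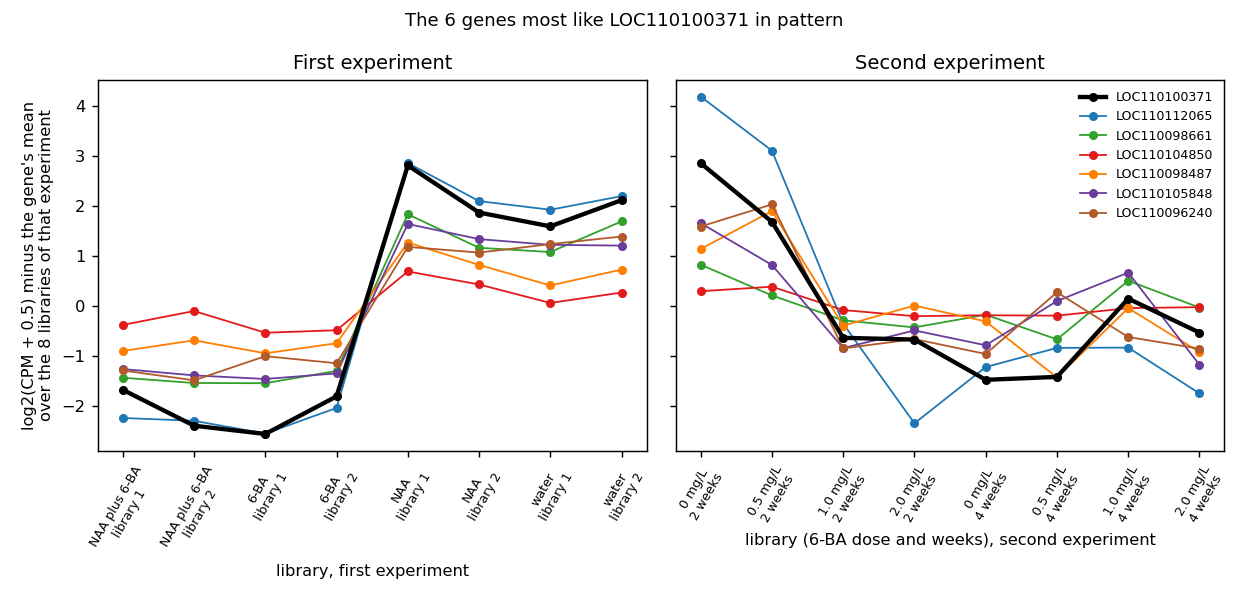
log2(CPM + 0.5) minus each gene's mean over the 8 libraries of that experiment, for LOC110100371 (black) and the 6 genes most like it, in the first (left) and the second experiment (right). In the first, all 7 lie below their means in the 4 libraries with 6-BA and above them in the other 4, and in the second all 7 are above their means at 0 and 0.5 mg/L and 2 weeks. The 6 genes were picked for likeness over these same libraries, so a shared pattern follows from the choice.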

How the data were processed

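Total RNA from young leaves, stems and shoots was enriched for poly(A) RNA and sequenced, per the labels. The authors deposited a table of gene counts and FPKM values (fragments per kilobase of length, scaled to the library) for each of 2 experiments. The submitters' processing notes name HISAT2 2.0.6, Cufflinks 2.2.2 and edgeR. For genome build, annotation release and strandedness the sources used here give nothing. The 26064 gene intervals of the deposited table that matched RefSeq gene numbers were the same in ASM160598v2. For LOC110100371 in the first experiment, the ratio of the deposited FPKM to counts per length and library total was 0.999865 to 0.999881. In the second the 2 scales differed. At 2.0 mg/L and 2 weeks they gave 0.480 FPKM against 0.413 from counts, and at 0 mg/L and 4 weeks 0.133 against 0.153. The cause was not tested. Levels between genes are compared in FPKM and levels between libraries in CPM.

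Counts were tested with edgeR 4.0.16 in R 4.3.3 (TMM, filterByExpr, quasi-likelihood, Benjamini-Hochberg over all genes tested, threshold 0.05). The first experiment was fitted as 4 groups of 2 libraries, with 4 residual degrees of freedom. The second was fitted on week and 6-BA, with 5. In the second experiment CPM and ratios of single libraries used library totals, with exact Poisson or conditional binomial 95% intervals. On simulated data 1 comparison of each experiment was tried, with a criterion for passing set only for the first experiment. Alternatives were other scaling, no filter on low counts, DESeq2 1.42.0, limma 3.58.1 on log2(FPKM + 1) and log2(FPKM + 0.1), a replicate block and leaving out each library.

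LOC110100371, the mannanase genes and the mannan lists were chosen with earlier results of these data known. Genes named are LOC110100371, the other mannanase genes, list members past the threshold in any comparison, the genes next to it on the scaffold, and the 6 most like it in pattern among genes with a mean of at least 1 CPM in each experiment. No sequence is printed.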

Additional observations from a re-analysis of the deposited data

Results flagged for a closer look

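The response of LOC110100371 to 6-BA had opposite directions at the 2 times of the second experiment. At 2 weeks the log2 ratio to the library without 6-BA was -1.23 at 0.5 mg/L, -3.99 at 1.0 mg/L and -4.04 at 2.0 mg/L. At 4 weeks it was 0.13 at 0.5 mg/L, 2.52 at 1.0 mg/L and 1.63 at 2.0 mg/L. All 3 libraries with 6-BA were lower than the one without it at 2 weeks and all 3 were higher at 4 weeks, though that of 0.5 mg/L at 4 weeks was within counting error. The 3 ratios of each time share 1 library without 6-BA, with 274 counts at 2 weeks and 6 counts at 4 weeks. The term for this difference, added after the values were seen, was 4.29 (SE 1.95, unadjusted p = 0.0663, adjusted p = 1.00, edgeR) and did not pass.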

How the results depend on the processing

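Across all alternatives the log2 fold change of LOC110100371 was -4.73 to -3.39 with 6-BA against water and -5.07 to -3.74 with NAA plus 6-BA against NAA, the ends nearest 0 from limma on log2(FPKM + 1). Leaving out 1 library at a time gave -0.011 to 0.94 for NAA against water (negative without NAA replicate 1), -0.30 to 0.69 for NAA plus 6-BA against 6-BA (negative, -0.19 and -0.30, without 6-BA replicate 1 and without NAA plus 6-BA replicate 1) and -0.84 to 0.20 for the interaction (positive, 0.20 and 0.15, without NAA replicate 1 and without 6-BA replicate 2). It gave, in the second experiment, -2.47 to 1.86 for any dose, positive without 0 mg/L at 2 weeks, -1.39 to -0.048 for the slope, -2.94 to -1.30 for the week and 3.63 to 5.65 for its interaction with 6-BA. With limma on log2(FPKM + 1) the week had -1.04 and that interaction 2.31. The cause was not tested. Neither auxin comparison and none of the 4 terms of the second experiment passed for LOC110100371 under any alternative run. Leaving out 1 library gave 0 to 1 other mannanase genes called with 6-BA against water, and 0 to 2 with NAA plus 6-BA against NAA, where library size scaling, no filter and DESeq2 each gave 1.

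Over all genes, counts of calls under the alternatives were 494 to 2074 (main 1420) for 6-BA against water, 387 to 1750 (1083) for NAA plus 6-BA against NAA, 112 to 784 (434) for NAA against water, 0 to 40 (0) for NAA plus 6-BA against 6-BA and 0 to 383 (101) for the interaction. The log2 differences between replicate 1 and replicate 2 correlated between groups at -0.286 to 0.317, with both signs. The replicate numbers were therefore not taken as pairs in the main fit, though shared structure under another pairing was not excluded. With a replicate block the counts were 1170, 835, 351, 0 and 37 in that order, and LOC110100371 had 0.51 for NAA against water and 0.16 for NAA plus 6-BA against 6-BA, neither past the threshold, and -0.35 for the interaction. The block ended the calls of LOC110114236 with 6-BA against water (adjusted p = 0.0544, edgeR) and of LOC110102411 with NAA plus 6-BA against NAA (adjusted p = 0.0609, edgeR). LOC110102411 also missed the threshold there with library size scaling, both limma fits and a fit of the 4 libraries compared (adjusted p 0.0669 to 0.0998). With NAA against water, limma on log2(FPKM + 1) ended the calls of LOC110108629 (adjusted p = 0.0606) and of LOC110105045 (0.0541), and LOC110105045 also missed with log2(FPKM + 0.1) (0.0524) and with the 4 libraries compared (0.107, edgeR). A crossed block, added after the data were seen, gave 2074, 1659, 626, 3 and 232. The interaction of week and 6-BA could not be fitted without either library of 0 mg/L. Depth limits the second experiment, where 6 of the 8 libraries held 34 or fewer counts of the gene.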
